A study of Mus musculus with 6 samples.

Results

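The subunits of nuclear RNA polymerases I, II and III were compared between mouse 4-cell embryos whose transcription had been blocked and then released and control 4-cell embryos. The 31 genes were chosen by name from the 55335 genes in the deposited files: every gene called Polr1, Polr2 or Polr3 followed by letters alone, plus Twistnb, Znrd1 and Cd3eap, which are older names of polymerase I subunits. By the polymerase that uses them, 6 belong to polymerase I, 2 are shared by I and III, 8 belong to II, 5 are shared by all of them and 10 belong to III. The embryos form 2 groups of 3 libraries. In the group called DRB, zygotes were placed at 6 h post-fertilization in 20 µM 5,6-dichloro-1-β-D-ribofuranosylbenzimidazole, kept there for 20 h, then rinsed free of it and grown on for 26 h. The group called Con holds the controls; the labels do not say whether they received the solvent. The sources used here give neither the mouse strain nor the number of embryos per library. No label states that replicates are independent matings or culture dishes, and the p-values therefore reflect the spread among these 6 samples, possibly a technical one.

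RNA polymerase I transcribes the ribosomal RNA genes in the nucleolus, polymerase II makes messenger RNA, and polymerase III makes transfer RNA and other small RNAs. Each is built around a pair of large subunits that form the catalytic centre, an assembly platform of smaller subunits, a stalk that protrudes from the enzyme and, in I and III, added subunits that act in initiation and termination. A few small subunits are common to all of them. The zygote inherits polymerase subunits and their mRNAs from the egg, and major transcription of the mouse embryonic genome begins in the cleavage stages. DRB blocks elongation by polymerase II through the kinase CDK9.

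The depth estimated from the steps in the low values was 21900000 to 25100000 fragments per library. Pearson's r between libraries over the 11893 tested genes was 0.935 to 0.944 for pairs of Con libraries, 0.909 to 0.937 for pairs of DRB libraries and 0.869 to 0.915 for mixed pairs. Genes of the mitochondrial genome took 12.2% to 20% of the summed FPKM in Con and 23.9% to 26.4% in DRB. Other genes thus made up a smaller share of the sum in DRB. The sum was not fixed and ran from 1034990 in DRB replicate 1 to 1257726 in DRB replicate 3. All 8 cleavage-embryo markers passed the filter on low values, summing to 205 to 305.8 FPKM in Con and 202.4 to 382.9 in DRB, and 1 of them was called. All 9 oocyte and egg markers passed it as well, summing to 14686 to 22387 and 13497 to 24830 FPKM, with 0 called. The 8 cumulus cell markers summed to 213 to 387.1 FPKM in Con and 143.7 to 275.8 in DRB, with Has2, Ptx3, Cyp19a1 and Fshr at 0 in all libraries. The 7 sperm markers summed to 8.97 to 19.1 and 7.3 to 17.4 FPKM, with Tnp2 at 0 in all libraries. The 7 blood markers summed to 74.4 to 115.8 and 47.05 to 87.5 FPKM. The part of these other cell types in the results was not tested.

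None of the polymerase subunit mRNAs passed the test between DRB and Con embryos. Of the 31 genes, 30 had at least 1 FPKM (fragment counts scaled to transcript length and library depth) in at least 3 libraries and were tested, and Polr3gl did not. By limma with Benjamini-Hochberg adjustment over all tested genes, 0 of the 30 had an adjusted p below 0.05, against 2.48% of all tested genes (1.53% higher and 0.95% lower), and the lowest adjusted p was 0.158. At an unadjusted p below 0.05, 1 of the 30 was lower and 0 were higher, against 10.5% and 7.53% of all tested genes, 18.1% in all. The 1 was Polr2e, a small subunit shared by all of the polymerases. The log2 fold change, always DRB over Con and on the scale of log2(FPKM + 1), was negative for 20 of the 30 and positive for 10. Its median was -0.25 over the 30 and -0.09 over all tested genes, of which 44% were positive. The 95% intervals of the 30 changes lay between -1.53 and 1.24, and all but that of Polr2e included 0.

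**Figure D1:**
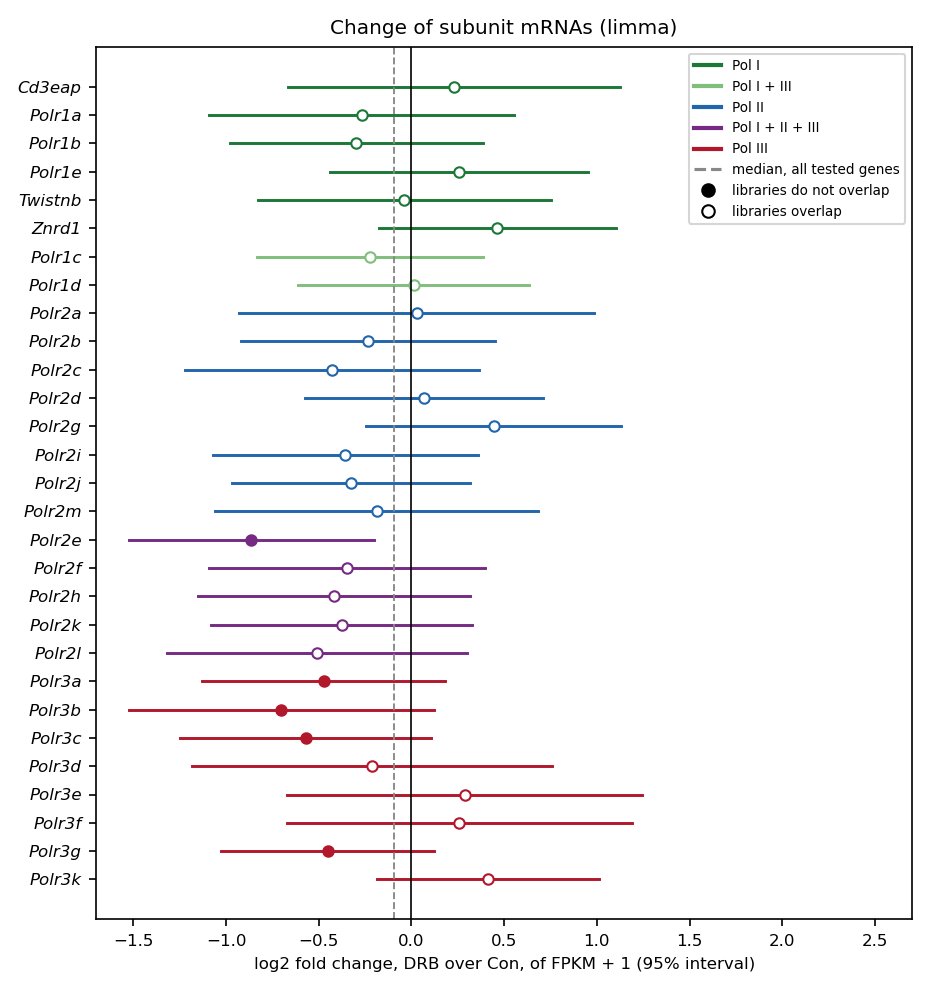
Log2 fold change of the tested subunits named here, DRB over Con, with limma's 95% interval; colours give the polymerase, filled points mark genes whose DRB and Con libraries do not overlap, and the dashed line is the median of all tested genes. All intervals include 0 except that of Polr2e, and the 5 filled points, Polr2e, Polr3a, Polr3b, Polr3c and Polr3g, lie below 0.

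The 3 DRB libraries lay entirely below the 3 Con libraries for 5 subunits, Polr2e, Polr3a, Polr3b, Polr3c and Polr3g, and entirely above them for 0. These are 5 of 30, where 13.9% of all tested genes lay entirely below and 9.85% entirely above (23.8% in all), so the share is near the background. Of the 5, 4 belong to polymerase III, and no difference between the polymerases was tested. In these whole-embryo libraries, fewer cells and less RNA per cell cannot be told apart, and FPKM gives a gene's share of the library and not its molecules per embryo.

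The mRNAs of subunits that sit side by side in 1 enzyme stood at very unequal levels. In Con, the mean per gene ran from 2.55 FPKM for Polr2a to 1028 FPKM for Polr2k, among genes above the filter. Polr2a encodes the largest subunit of polymerase II, whose tail is phosphorylated during elongation, and Polr2k one of the smallest common subunits. The FPKM of Polr2b, the second-largest subunit of polymerase II, was 8.42 to 19.6 times that of Polr2a within each library. The corresponding ratio of Polr1b to Polr1a was 1.65 to 2.83. In polymerase III the largest subunit stood higher instead, with Polr3a at 1.68 to 3.25 times Polr3b. The large catalytic subunits of I and III thus stood closer together than those of II. Polr2k, Polr2j, Polr2h and Polr2l had the highest means in Con, and Polr2k, Polr2j and Polr2h also in DRB.

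**Figure D2:**
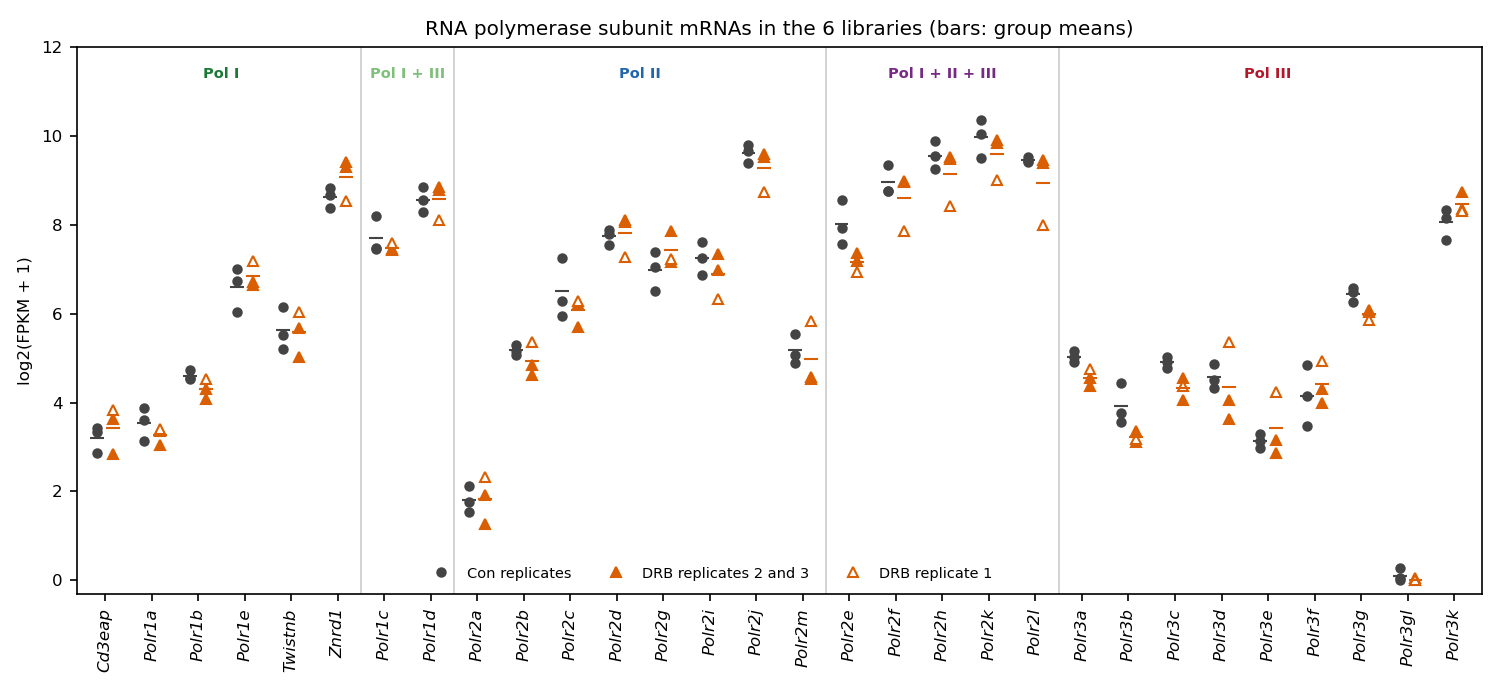
Level of the subunits named here as log2(FPKM + 1) in the Con libraries (circles) and DRB libraries (triangles, replicate 1 open), grouped by polymerase, with bars at the group means. Polr2k has the highest Con mean, Polr2a is the lowest gene above the filter, Polr3gl sits at the bottom, and DRB replicate 1 is below every other library for all 5 common subunits.

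For polymerase II, Polr2a stood at 3.33, 1.92 and 2.41 FPKM in Con replicates 1 to 3 and at 4.01, 1.41 and 2.79 FPKM in DRB replicates 1 to 3. These values rest on about 209 to 610 fragments per library, and the groups overlapped fully, with the lowest and the highest value both in DRB. Its log2 fold change was 0.03 with a 95% interval of -0.93 to 0.99 (limma adjusted p 0.981). Polr2b stood at 34.7, 32.8 and 38.03 FPKM in Con and at 40.3, 27.7 and 23.5 FPKM in DRB. The Con libraries were close together for Polr2b and the DRB libraries spread to either side of them (log2 fold change -0.23, interval -0.92 to 0.45, limma adjusted p 0.757).

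The other 6 genes of polymerase II had log2 fold changes from -0.43 for Polr2c to 0.44 for Polr2g, with limma adjusted p of 0.5 or more. Polr2c and Polr2j belong to the assembly platform. Polr2c had a mean of 96.7 ± 48.3 FPKM over the Con libraries and 67.4 ± 14.02 FPKM over the DRB libraries (SD, n = 3), and Polr2j was at 788.4 ± 112.4 and 646.3 ± 193.1 FPKM. The stalk is formed by Polr2d and Polr2g, whose mRNAs had log2 fold changes of 0.07 and 0.44, the latter from 128.9 ± 37.7 to 174.8 ± 49.9 FPKM. Polr2i, a subunit involved in transcript cleavage and fidelity, was at 154.1 ± 39.1 and 122.4 ± 40.99 FPKM. Polr2m, which encodes a protein bound to a fraction of polymerase II and is not a core subunit, was at 35.7 ± 8.87 and 33.7 ± 19.4 FPKM. Over the 8 genes of this polymerase 3 were positive and 5 negative, with a median of -0.21.

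All 5 subunits common to polymerases I, II and III had negative log2 fold changes, with a median of -0.42, and 1 DRB library was far below the others for most of them. Polr2e stood at 377.03, 242.5 and 189.9 FPKM in Con and at 120.9, 143.6 and 164.4 FPKM in DRB. Every DRB library was below every Con library, and the Con libraries differed among themselves more than the DRB libraries did. The log2 fold change of Polr2e was -0.86 ± 0.30 (SE), with an interval of -1.53 to -0.20, an unadjusted p of 0.0152 and a limma adjusted p of 0.158. Without Con replicate 1, the highest library, it was -0.59 (limma adjusted p 0.379).

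Polr2f stood at 646.5, 432.6 and 432.3 FPKM in Con and at 233.1, 499.8 and 502.3 FPKM in DRB. Polr2h stood at 938.5, 744.7 and 610.7 FPKM in Con and at 339.5, 718.1 and 734.5 FPKM in DRB. Polr2k stood at 729.2, 1304 and 1049.6 FPKM in Con and at 516.1, 956.4 and 922.6 FPKM in DRB. In each of these genes DRB replicate 1 was the lowest library, and DRB replicates 2 and 3 lay within the range of the Con libraries. Polr2l stood at 693.1, 736.5 and 679.1 FPKM in Con and at 252.9, 672.7 and 705.5 FPKM in DRB. Here the Con libraries agreed closely, 1 DRB library was far below them and the other 2 were beside them.

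The log2 fold changes were -0.35 for Polr2f, -0.42 for Polr2h, -0.38 for Polr2k and -0.51 for Polr2l, with limma adjusted p of 0.513 to 0.649. Without DRB replicate 1 these were 0.02, -0.05, -0.09 and -0.03, while that of Polr2e was -0.75 (limma adjusted p 0.259). The median over the 5 common subunits was then -0.05, against -0.16 over all genes tested without that library. The size of the median of these 5 subunits thus depended on DRB replicate 1, although 4 of the 5 stayed negative without it. The cause was not tested.

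Polymerase III, with 9 genes tested, held 4 of the 5 subunits whose groups did not overlap. In these 4 the DRB libraries lay entirely below the Con libraries. Over all tested genes 13.9% lay entirely below and 9.85% entirely above, 23.8% in all. No difference between the polymerases was tested. Polr3a, its largest subunit, stood at 34.8, 28.98 and 31.7 FPKM in Con and at 26.2, 19.7 and 22.3 FPKM in DRB. Polr3b, the other catalytic subunit, stood at 20.7, 10.8 and 12.5 FPKM in Con and at 8.06, 9.29 and 7.65 FPKM in DRB. The DRB libraries of Polr3b were close together, and Con replicate 1 stood well above the other Con libraries. The log2 fold changes were -0.47 for Polr3a and -0.70 for Polr3b, with intervals of -1.13 to 0.18 and -1.53 to 0.12 (limma adjusted p 0.441 and 0.356).

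Polr3c and Polr3g belong, with Polr3f, to a trio of subunits that acts in initiation and has no counterpart among the core subunits of polymerase II. Polr3c stood at 31.7, 29.1 and 26.5 FPKM in Con and at 19.9, 22.6 and 15.8 FPKM in DRB. Polr3g stood at 94.4, 75.6 and 89.02 FPKM in Con and at 57.02, 66.8 and 64.5 FPKM in DRB. In both genes the gap between the lowest Con and the highest DRB library was narrower than the range within either group, with log2 fold changes at -0.57 and -0.45 (limma adjusted p 0.36 and 0.4). The third gene of the trio, Polr3f, had the opposite sign, at 18.2 ± 8.94 FPKM in Con and 21.1 ± 7.62 in DRB (log2 fold change 0.26, limma adjusted p 0.812).

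Polr3d and Polr3e, which pair in a module for initiation and termination, were at 23.04 ± 4.69 and 7.82 ± 1.01 FPKM in Con and at 22.5 ± 15.5 and 10.7 ± 6.35 FPKM in DRB. The groups overlapped for both, and DRB replicate 1 was the highest library, at 40.2 and 17.99 FPKM. Polr3k, a small subunit that acts in transcript cleavage and termination, had the most positive change of this polymerase, from 269.4 ± 61.6 to 355.1 ± 60.6 FPKM (log2 fold change 0.41, limma adjusted p 0.47). Of the 9 tested genes 6 were negative, with a median of -0.38; with the mitochondrial genes left out of the scaling it was -0.24, against 0.03 over all genes. Without DRB replicate 1, 8 of the 9 were negative with a median of -0.58, and 0 had a limma adjusted p below 0.05. Of all genes tested without that library, 47 of 11257 did, 34 higher and 13 lower. The median of all genes tested was then lower too, at -0.16 against -0.09 with all libraries, with 39.3% and 44% positive. In that comparison 6 of the 9 lay entirely below Con, where 24% of all genes tested did.

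Polymerase III carries either Polr3g or its paralog Polr3gl at the same place; the form with Polr3g is known from pluripotent cells and the form with Polr3gl from differentiated tissues. Nearly all of the signal of this pair came from Polr3g. Polr3gl was listed at 0.21, 0.03 and 0 FPKM in Con and at 0, 0 and 0.03 FPKM in DRB, about 0 to 6 fragments per library. The difference log2(Polr3g + 1) minus log2(Polr3gl + 1) was 6.3, 6.22 and 6.49 in Con and 5.86, 6.08 and 5.99 in DRB. An exact two-sided permutation test gave p 0.1, which is the smallest that 3 libraries against 3 can give. As Polr3gl was near 0 in all libraries, this difference is almost that of Polr3g alone. The p therefore restates that the groups did not overlap for Polr3g and is no separate test of a balance. With a pseudocount of 0.1 the difference between groups turned from -0.36 to 0.09 (exact permutation p 0.9), since single fragments of Polr3gl then weigh more.

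The promoters of these paralogs are shown because 1 of the genes was abundant and the other near 0 in the same embryos. Each line gives the 250 bases before the start in the RefSeq annotation of GRCm38.p6, 5′ to 3′ on the strand of the gene, which is the minus strand for both. Polr3g lies at chr13:81673843-81711013 and its window at chr13:81711014-81711263; Polr3gl lies at chr3:96577872-96594181 and its window at chr3:96594182-96594431. Capitals mark matches, on either strand, to the GC box GGGCGG, to the box named for its letters CCAAT, to the E-box CACGTG or to the TATA box TATAAA; no matches shown overlap.
Polr3g: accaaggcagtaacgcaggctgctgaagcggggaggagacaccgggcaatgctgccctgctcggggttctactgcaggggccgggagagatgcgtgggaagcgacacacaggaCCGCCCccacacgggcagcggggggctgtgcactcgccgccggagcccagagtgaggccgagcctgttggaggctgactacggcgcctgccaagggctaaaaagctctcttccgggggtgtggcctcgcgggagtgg
Polr3gl: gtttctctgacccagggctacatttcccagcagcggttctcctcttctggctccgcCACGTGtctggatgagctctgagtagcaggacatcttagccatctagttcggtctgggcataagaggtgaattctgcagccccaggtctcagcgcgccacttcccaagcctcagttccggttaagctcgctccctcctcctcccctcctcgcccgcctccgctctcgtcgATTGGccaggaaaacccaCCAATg

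The window of Polr3g held 1 match to GGGCGG and none to the other motifs, with 19 CG dinucleotides and 68.4% G and C. That of Polr3gl held 2 matches to CCAAT, both within the last stretch before the start, and 1 to CACGTG, with 13 CG dinucleotides and 59.2% G and C. Among 32851 windows of the same length in the RefSeq table, 32.7% held GGGCGG, 33.8% CCAAT, 6.02% CACGTG and 12.4% TATAAA. Among the 28 windows of the 25 subunits found in that table, 15 held GGGCGG, 9 CCAAT, 3 CACGTG and 2 TATAAA. The median number of CG dinucleotides was 16.5 over these 28 and 6 over all windows. These matches describe letters in a window, not sites.

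Polymerase I showed no common direction, with 3 of 6 genes positive and a median of 0.10. Polr1a, its largest subunit, stood at 13.7, 11.2 and 7.74 FPKM in Con and at 9.52, 7.24 and 9.27 FPKM in DRB. Polr1b, the second-largest, stood at 22.5, 25.4 and 21.9 FPKM in Con and at 22.2, 18.7 and 15.9 FPKM in DRB. The groups overlapped for both, with log2 fold changes at -0.27 and -0.30 (limma adjusted p 0.768 and 0.677). Polr1e and Cd3eap form a pair of polymerase I subunits, and their log2 fold changes were 0.26 and 0.23. Twistnb, of the stalk, was at 50.2 ± 17.5 and 48.98 ± 16.6 FPKM.

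Znrd1, the subunit of polymerase I that acts in transcript cleavage, had the most positive change of all 30 tested subunits. It stood at 403.7, 451.9 and 332.8 FPKM in Con and at 371.7, 683.7 and 628.1 FPKM in DRB, so that DRB replicates 2 and 3 were above all Con libraries and DRB replicate 1 was among them. The log2 fold change was 0.46 with an interval of -0.18 to 1.10 (limma adjusted p 0.439). Without DRB replicate 1 it was 0.74, with an unadjusted p of 0.0106 and a limma adjusted p of 0.162. Its values per library are given because they were seen to depend on that one.

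Polr1c and Polr1d, the platform subunits that polymerases I and III share, overlapped between groups. Polr1c stood at 292.7, 173.9 and 177.95 FPKM in Con and at 191.3, 173.5 and 171.0 FPKM in DRB. Apart from Con replicate 1, the values of Polr1c were close together (log2 fold change -0.22, interval -0.83 to 0.39, limma adjusted p 0.738). Polr1d stood at 458.1, 378.2 and 312.1 FPKM in Con and at 275.4, 457.3 and 439.3 FPKM in DRB, with a log2 fold change of 0.01 (limma adjusted p 0.988).

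Transcript length ran along with both the level of the subunits and the position of DRB replicate 1. Over the 30 tested subunits Spearman's rho between transcript length and mean level was -0.81 in Con and -0.82 in DRB, while over the 11884 tested genes with a length it was -0.02 and -0.002. The 13 subunits with transcripts under 2000 bases had a median log2 level of 8.57 in Con, and the 17 longer ones 4.91. These are correlations across genes in the same libraries, given as a description. The cDNA was made from an oligo-dT primer and amplified before shearing, and the part of that step in the relation was not tested.

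DRB replicate 1 was the lowest of the 6 libraries for 10 of the 30 subunits and the highest for 9; over all tested genes the shares were 20.8% and 27.7%. Con replicate 1 was the highest library for 12 of the 30, or 40%, against 22.4% of all tested genes, and DRB replicate 3 was the lowest for 9, or 30%, against 22.3%. DRB replicate 1 was lowest for Polr1d, Polr2d, Polr2e, Polr2f, Polr2h, Polr2i, Polr2j, Polr2k, Polr2l and Polr3g, and among those for which it was highest were Cd3eap, Polr1e, Polr2a, Polr2b, Polr2m, Polr3d, Polr3e and Polr3f. Set against the mean of DRB replicates 2 and 3, this library was lower by a median of -0.82 (log2) for the 13 subunits with short transcripts, 11 of them negative, and higher by 0.60 for the 17 longer ones, 3 of them negative. Over all tested genes the same medians were -0.17 and 0.40. Spearman's rho between this difference and length was 0.67 over the subunits and 0.31 over all tested genes.

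**Figure D3:**
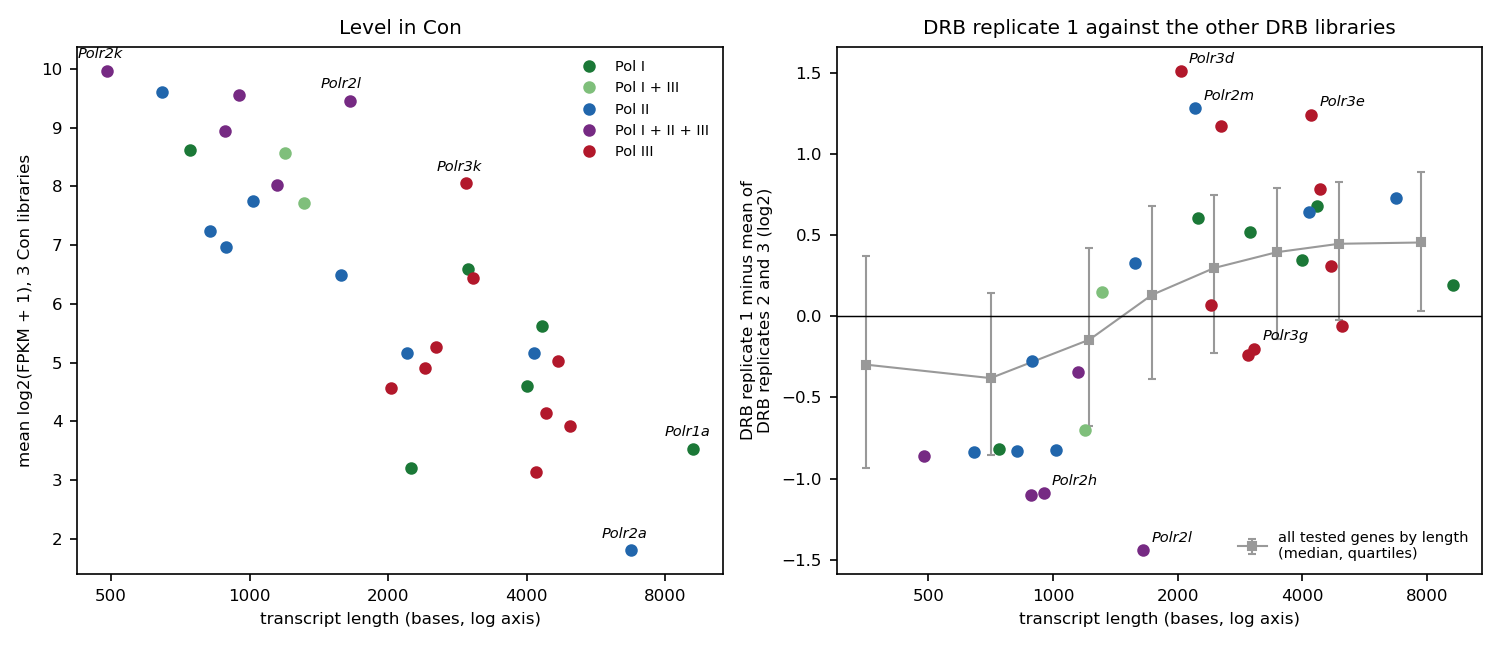
Transcript length (log axis) of the 30 tested subunits against their mean log2(FPKM + 1) in Con (left) and against DRB replicate 1 minus the mean of DRB replicates 2 and 3 (right), coloured by polymerase; grey squares and bars on the right are the median and quartiles of all tested genes up to 10000 bases in bins of length. Levels are lower at greater length (rho -0.81), and on the right 11 of 13 short subunits lie below 0 and 3 of 17 long ones do.

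With the trend on transcript length removed from every library, an alternative chosen after this was seen, 0 of the 30 subunits passed the test. Over all genes 324 of 11893 passed it in that fit, 236 higher and 88 lower. The median of the 5 common subunits was then -0.27 and that of polymerase III -0.31, against -0.01 over all tested genes. Polr2e, Polr3a, Polr3b, Polr3c and Polr3g again did not overlap between groups, joined by Polr1b below and Znrd1 above Con, where 12.3% and 12.4% of all tested genes did so.

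The factors that work with the polymerases gave no call either. Over all tested genes 2.48% were called, 1.53% higher and 0.95% lower. Of 11 tested initiation factors of polymerase I, 31 general factors of II, 31 subunits of Mediator, 16 initiation factors of III with its repressor Maf1, 19 genes of polymerase assembly and import and 8 of mitochondrial transcription, 0 passed the limma test in either direction. At an unadjusted limma p below 0.05, 5 of the 116 were higher and 10 lower, where 7.53% and 10.5% of all tested genes were. The medians of the lists were -0.08, 0.03, -0.06, 0.07, -0.23 and -0.08 in that order. The list with the lowest median, assembly and import, had 13 of 19 members negative.

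**Figure D4:**
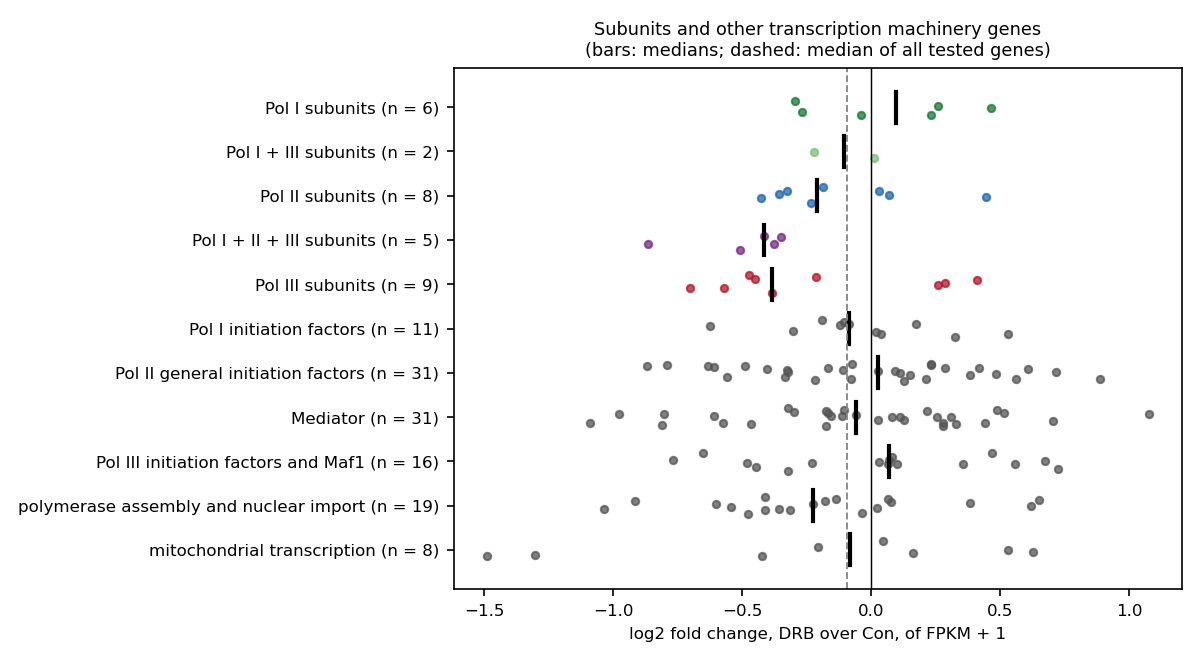
Log2 fold change, DRB over Con, of each tested gene (points) in the 5 sets of subunits and the 6 lists of other transcription machinery, with black bars at the medians and a dashed line at the median of all tested genes. Single genes spread to both sides of 0 in every set except the 5 common subunits, and no gene shown passed the test.

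The most abundant members of the lists lay on both sides of 0. Npm1, a nucleolar chaperone, stood at 3497 ± 428.9 FPKM in Con and 3241 ± 243 in DRB, and Taf1d, a subunit of the selectivity factor of polymerase I, at 855.5 ± 196.6 and 1221 ± 149.2 FPKM (limma adjusted p 0.874 and 0.309). Gtf2h5 and Taf13, of the general factors, had log2 fold changes of -0.63 and 0.23, Med10 and Med31 of Mediator 0.44 and 0.33, and Pfdn6 and Tcea1, a prefoldin subunit and an elongation factor that rescues stalled polymerase II, -0.54 and 0.02. Snapc3 and Snapc5, of the complex that recruits polymerases II and III to small nuclear RNA genes, had opposite signs, 0.72 and -0.65 (limma adjusted p 0.195 and 0.26). Tefm and Tfb2m, of mitochondrial transcription, stood at -0.21 and 0.63 on the log2 fold change scale (limma adjusted p 0.828 and 0.236).

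The genes of these lists with an unadjusted p below 0.05, apart from the Snapc pair and Tfb2m, were named after their values were seen. Gpn1, a GTPase needed for nuclear import of polymerase II, stood at 86.9, 71.2 and 86.3 FPKM in Con and at 41.4, 48.8 and 38.02 FPKM in DRB. Ruvbl2, an ATPase of a chaperone complex that assembles the polymerases, stood at 57.6, 60.2 and 43.3 FPKM in Con and at 34.7, 19.9 and 23.7 FPKM in DRB. The groups did not overlap for either gene, and the log2 fold changes were -0.92 and -1.03 (limma adjusted p 0.104 and 0.118). Rrn3, which links polymerase I to its promoter factors, had a log2 fold change of -0.63, from 237.8 ± 40.0 to 152.5 ± 12.9 FPKM (limma adjusted p 0.221). Taf1, Tbpl1 and Med26 had log2 fold changes of 0.89, 0.61 and 1.08. Med26 stood at 25.2 FPKM in DRB replicate 1 and at 7.93 and 12.8 FPKM in DRB replicates 2 and 3. Taf8, Med8, Med25 and Med29 had log2 fold changes of -0.87, -0.81, -0.98 and -0.58, and Mterf4 and Mterf1b, of mitochondrial transcription, -1.30 and -1.49 (limma adjusted p 0.13 to 0.262 over these 9 genes). The groups overlapped for Taf8 and for Mterf1b, whose values were low, at 0.78 to 10.8 FPKM.

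Some subunits share exon bases with a gene on the opposite strand, and the library kit as described does not mark strand. Polr2i shares 325 bases with Tbcb, listed at 37.9 to 62.8 FPKM, and Cd3eap shares 106 bases with Ercc1, at 36.3 to 110.4 FPKM. Reads from these stretches cannot be assigned with certainty, so the levels of Polr2i and Cd3eap are uncertain to that extent. The partners of Polr1a, Polr2b, Polr2c, Polr2f, Polr2h, Polr2j and Polr3b stood at 5.65 FPKM or less. The pseudogene Polr2k-ps was at 0 FPKM in all 6 libraries.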

How the data were processed

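RNA from 6 libraries of mouse 4-cell embryos was measured by Smart-Seq2, per the labels' protocols. The submitters' processing notes list cutadapt 1.16, STAR and mm10; the sources used here name neither the program behind the FPKM nor its annotation release. Each deposited table lists 1 FPKM value per gene with 2 decimals, per the file headers. All 31 members matched GENCODE M21 (GRCm38, the assembly of mm10) by versioned ID, which gave positions and the length of the principal transcript.

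The filter asked for 1 FPKM or more in 3 or more libraries. The 11893 genes left entered limma 3.58.1 (R 4.3.3) as log2(FPKM + 1), with a mean-variance trend and group as the single term. The p-values are two-sided, with Benjamini-Hochberg adjustment over these genes, called below 0.05. A count test was not used because the values are not counts. Fragments per library were inferred from the steps between low values in 1-transcript genes, after taking 160 bases off each length; 72.5% to 81.4% of these values fell within 0.15 of a whole fragment. The difference between paralogs used an exact permutation test.

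Counts and medians cover all members, but the values of 1 member are not reported here. The members and the gene lists were chosen with earlier results of these data known. Values per library are given for members whose groups do not overlap or whose unadjusted p is below 0.05, for catalytic and shared subunits and for Polr3g and Polr3gl; from each list, called genes or else its 2 most abundant. Polr1has was not matched, and Tbpl2, Ercc2, Taf9b, Med18 and Tfb1m did not pass the filter. Alternatives were other pseudocounts, filters, scalings and thresholds, no variance trend, the replicate number as a block, each library left out, and a transcript length trend removed. Python 3.11.15, scipy 1.17.1, pandas 2.3.3 and matplotlib 3.10.9 were used.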

Additional observations from a re-analysis of the deposited data

How the results depend on the processing

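Over 16 alternative fits, 0 of the tested subunits and 0 genes of the 6 machinery lists were called by limma at an adjusted p below 0.05 in any; with all libraries and an adjusted p below 0.1, 0 subunits were called. The sign of the change was the same in every fit for 19 of the 30 subunits and turned in at least 1 for 11. Leaving out the mitochondrial genes moved the median of all genes by 0.125 (log2), after which the median of the subunits was -0.11 against 0.03.

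Over all genes 295 were called, 182 higher (61.7%) and 113 lower. The counts were 6, 6 and 0 with no filter, and 164, 113 and 51 with a pseudocount of 0.1. They were 171, 127 and 44 with the replicate block, and 658, 355 and 303 at an adjusted p below 0.1. Without the variance trend 75 were lower. The share of higher calls was 73.7% without mitochondrial genes, 72.2% with median-of-ratios scaling and 72.8% with the length trend removed. Without 1 library, 47 to 220 were called, 34 to 139 higher and 13 to 81 lower, fewest without DRB replicate 1.

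The number of subunits at an unadjusted p below 0.05 was 3 lower with no filter (Polr2e, Polr3c and Polr3g), where 5.35% of all genes were lower, and 1 higher with the length trend removed (Znrd1), where 10.1% of all genes were higher. Without 1 library it was 0 to 2 lower and 0 to 1 higher, with 0 in either direction without Con replicate 1. Without DRB replicate 1, 2 were lower, Polr2e among them, and Znrd1 was higher. Over all genes tested in these fits, about 7% to 11% were lower and 6% to 8% higher at that unadjusted p. Without DRB replicate 1 these shares were about 11% and 6%. The subunits lying entirely below Con numbered 5 to 11 without 1 library, with 9 without Con replicate 3 and 11 without DRB replicate 1, and those entirely above numbered 0 to 3. The shares of all genes were larger too: 18% to 24% below (20.1% without Con replicate 3, 24% without DRB replicate 1; 13.9% with all libraries) and 12.4% to 16.1% above (9.85%). Of the subunits, 1 lay above with the length trend removed (Znrd1) and 1 without mitochondrial genes (Polr3k), where 12.4% and 12.7% of all genes did. The difference between Polr3g and Polr3gl turned to 0.0877 with a pseudocount of 0.1, and was -0.42 to -0.28 without 1 library. With the replicate block 0 subunits were called, as in the main fit. No source says what the replicate numbers mark. Deviations of same-numbered libraries correlated at -0.051 to 0.053, with 1 of 3 Con libraries closest to its own number. Causes of these differences between settings were not tested. Leaving out 1 library changes both the number of libraries and which of them remain. Depth limits Polr3gl, at 6 fragments or fewer.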
